A study of Mus musculus with 20 samples.

Results

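The 9 genes described here, *Six3*, *Hesx1*, *Lhx5*, *En1*, *Wnt1*, *Pax2*, *Egr2*, *Sox1* and *Pax6*, pattern the neural plate along the head to tail axis of the early mouse embryo. They were chosen by symbol, and all 9 are among the 22729 genes of the embryo count table. RNA was sequenced from 12 whole C57BL/6 embryos, each its own library, collected at E8.5. There were 6 of *Zmym2*-/- and 6 of *Zmym2*+/+ genotype, and in each genotype embryos 1 to 3 were the 3 males and embryos 4 to 6 the 3 females. *Zmym2*- is an allele with a frameshift in the first coding exon, and the embryos were ones in which the study saw no abnormality. For context, V6.5 cells (C57BL/6x129/SvJae) were sequenced as mouse embryonic stem cells (mESCs) in serum and LIF and as embryoid bodies (EBs) after 3 days of differentiation, with 2 *Zmym2*-/- and 2 control libraries at each stage. The *Zmym2*-/- lines are clonal and were edited with Cas9 and the guide of the mouse allele, the controls are clonal lines that received a non-target (NT) guide, and whether the 2 libraries of a group are separate clones is not stated.

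The neural plate is the sheet of ectoderm that folds into the brain and spinal cord. Its front part becomes forebrain under homeobox factors such as SIX3 and HESX1, in a region kept low in Wnt signalling. Further back, a signalling centre at the boundary of midbrain and hindbrain expresses *Wnt1*, *En1* and *Pax2*, and the hindbrain divides into segments, a pair of which express *Egr2*. The genes come on in sequence during the days around E8.5, and a whole embryo also holds many cells outside the neural plate. In whole embryos, fewer cells of a type and less RNA per cell cannot be told apart.

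Each embryo gave 38142819 to 64057608 counts and each library of the lines 32016880 to 50937945. Levels are CPM, counts relative to the library total with TMM scaling. The number in an embryo's name is read here as its litter. By this reading, 3 litters held both genotypes: litter A with *Zmym2*-/- embryo 4 and *Zmym2*+/+ embryos 1 and 4, litter B with *Zmym2*-/- embryo 5 and *Zmym2*+/+ embryo 2, and litter C with *Zmym2*-/- embryo 6 and *Zmym2*+/+ embryo 3. The 3 male *Zmym2*-/- embryos came from 1 other litter, so among *Zmym2*-/- embryos sex and litter cannot be told apart. *Zmym2* transcript was at 25.4 to 67.1 CPM (median 47.7) in *Zmym2*-/- embryos and 50.3 to 125 CPM (median 87.9) in *Zmym2*+/+ embryos, with overlapping ranges (log2 fold change -0.91 in edgeR with a standard error, SE, of 0.25, adjusted p = 0.226). A frameshift need not remove the transcript, so this level does not check the genotype.

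None of the 9 genes was called by genotype in embryos at an adjusted p under 0.05 in the quasi-likelihood test of edgeR, beside 0.524% of all genes tested. None had an unadjusted p under 0.05 either (12% of all genes), and DESeq2 (1.57% of all genes called) and limma on RPKM also called 0. Of the 9, 4 were higher in *Zmym2*-/- embryos, beside 52.3% of all genes, and the median log2 fold change was -0.12, against 0.02 over all genes. All 9 genes overlapped between the genotypes, while 1.18% of all genes did not overlap. For 5 of the genes, *En1*, *Wnt1*, *Egr2*, *Sox1* and *Pax6*, each female *Zmym2*-/- embryo had a lower level than each male *Zmym2*-/- embryo. The share of all genes that part in this way was not counted, and these males share a litter.

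The forebrain genes had positive but uncalled differences. *Six3*, a homeobox repressor needed for the forebrain and eye, had a lowest, median and highest level of 5.63, 7.62 and 19.7 CPM in *Zmym2*-/- embryos, against 1.40, 6.27 and 18.2 CPM in *Zmym2*+/+ embryos. The difference in edgeR was 0.42 on the log2 scale (SE 0.52, adjusted p = 0.775). *Hesx1*, a homeobox repressor of the anterior forebrain and pituitary, was at 2.14, 8.77 and 15.5 CPM in *Zmym2*-/- embryos, against 3.12, 6.0 and 10.5 CPM in *Zmym2*+/+ embryos (edgeR log2 ratio 0.47, SE 0.43, adjusted p = 0.685). *Lhx5*, a LIM homeobox factor of the forebrain, was at 1.07, 11 and 19.0 CPM in *Zmym2*-/- embryos, against 1.73, 7.68 and 16.3 CPM in *Zmym2*+/+ embryos (edgeR log2 ratio 0.44, SE 0.58, adjusted p = 0.792). The lowest *Zmym2*-/- value of all 3 genes was that of embryo 6, and the highest values came from embryos 1, 5 and 4.

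Of the midbrain and boundary genes, *En1* and *Wnt1* reached much lower values in some *Zmym2*-/- embryos than in any *Zmym2*+/+ embryo. *En1*, a homeobox factor of the midbrain and cerebellum, was at 0.317, 8.21 and 24.0 CPM in *Zmym2*-/- embryos, against 3.49, 13.2 and 20.3 CPM in *Zmym2*+/+ embryos (edgeR log2 ratio -0.39, SE 0.74, adjusted p = 0.868). *Wnt1*, the secreted signal that maintains *En1* in the midbrain, had a median of 7.39 CPM and a highest value of 18.5 CPM in *Zmym2*-/- embryos, against 2.26, 8.0 and 13.9 CPM in *Zmym2*+/+ embryos (edgeR log2 ratio -0.15, SE 0.87, adjusted p = 0.964). Embryo 6 had 0 *Wnt1* counts, which allows up to 3 counts, or 0.0453 CPM. *Pax2*, a paired-box factor that also marks the early kidney and ear, was at 2.46, 11.6 and 18.6 CPM in *Zmym2*-/- embryos, against 1.40, 7.92 and 22.4 CPM in *Zmym2*+/+ embryos (edgeR log2 ratio 0.25, SE 0.55, adjusted p = 0.889).

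The hindbrain gene *Egr2*, a zinc finger factor of hindbrain segments and later of Schwann cells, was at 0.149, 3.02 and 7.88 CPM in *Zmym2*-/- embryos, against 1.07, 3.87 and 5.79 CPM in *Zmym2*+/+ embryos (edgeR log2 ratio -0.12, SE 0.75, adjusted p = 0.965). Its lowest values rest on few reads, 6 counts in *Zmym2*-/- embryo 5 and 19 in embryo 6.

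*Sox1*, a SOX factor expressed over the whole neural plate, was at 2.50, 14.2 and 43.5 CPM in *Zmym2*-/- embryos, against 3.74, 18.5 and 41.2 CPM in *Zmym2*+/+ embryos (edgeR log2 ratio -0.15, SE 0.69, adjusted p = 0.951). *Pax6*, which is needed for the eye and acts in forebrain, hindbrain and spinal cord, was at 0.257, 14.7 and 40.6 CPM in *Zmym2*-/- embryos, against 16.0, 18.5 and 36.0 CPM in *Zmym2*+/+ embryos (edgeR log2 ratio -0.42, SE 0.79, adjusted p = 0.867). The *Zmym2*-/- embryos lay on both sides of the *Zmym2*+/+ range of *Pax6*: the 3 females, at 8.16, 1.09 and 0.257 CPM, were below it, and male embryo 1 was above it. The highest *Pax6* value was 158 times the lowest among *Zmym2*-/- embryos and 2.25 times the lowest among *Zmym2*+/+ embryos, and for *En1* these ratios were 75.6 and 5.80. The lowest *Zmym2*-/- values of both genes, those of embryo 6, rest on few reads, 17 counts for *Pax6* and 21 for *En1*.

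**Figure D1:**
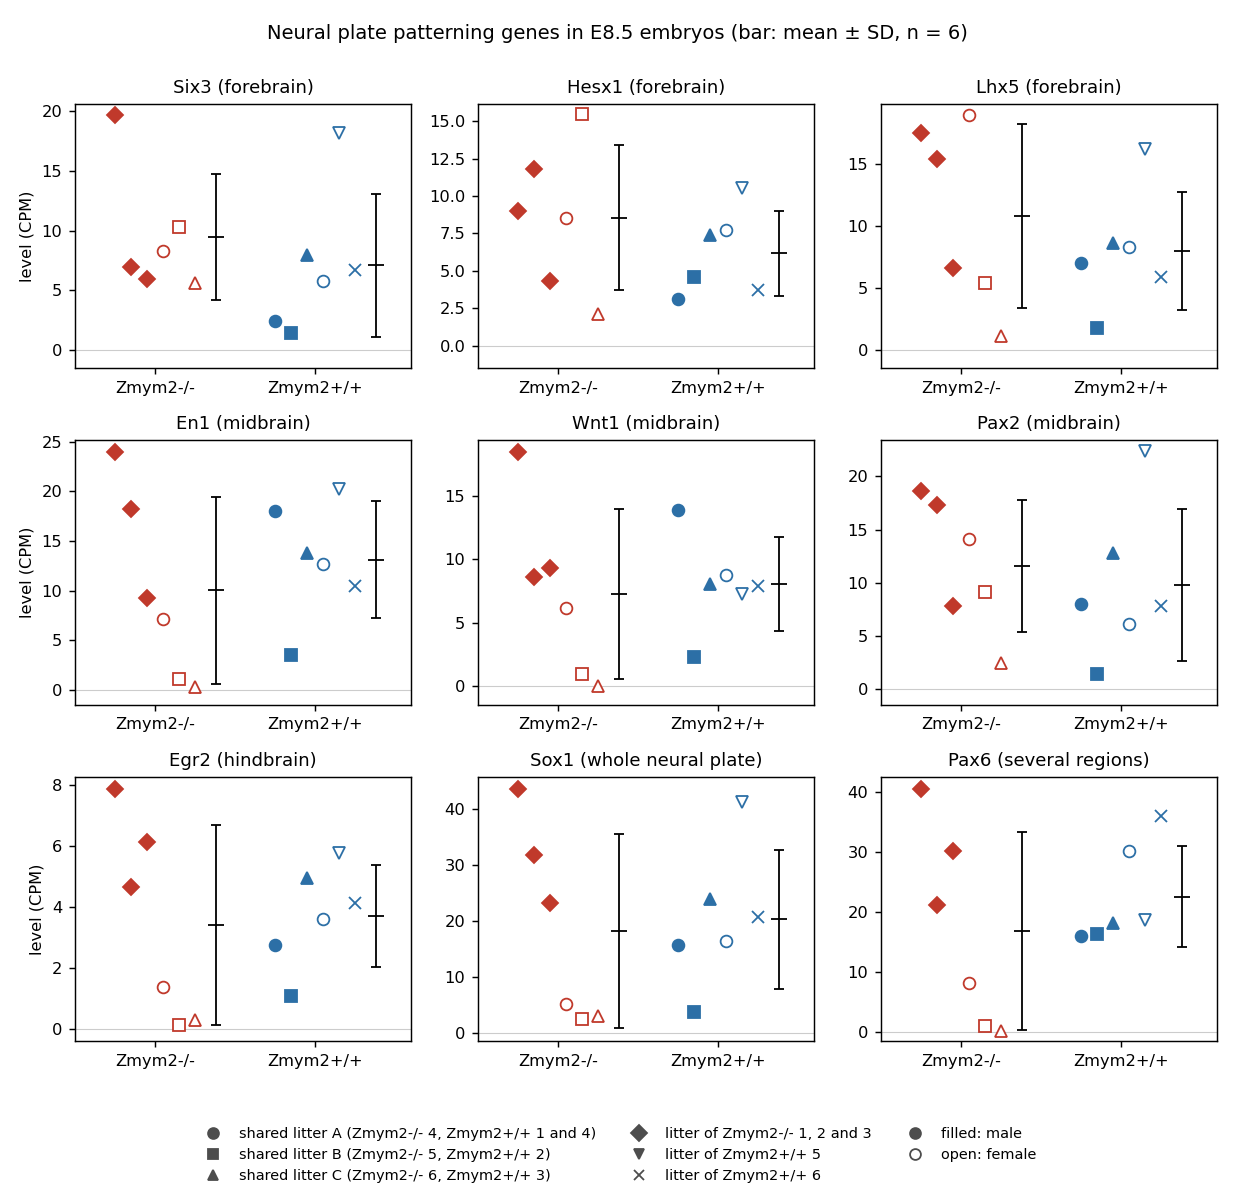
Level in CPM of each of the 9 genes in every embryo, *Zmym2*-/- at the left and *Zmym2*+/+ at the right of each panel, with marker shapes for litters, filled points for males, open points for females, and the mean ± SD of 6 embryos as a bar. For *En1*, *Wnt1*, *Egr2*, *Sox1* and *Pax6* the 3 open *Zmym2*-/- points lie below the 3 filled ones, while for *Six3*, *Hesx1*, *Lhx5* and *Pax2* they mix.

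These differences are poorly resolved in 12 embryos. The approximate 95% interval of the log2 fold change ran from -1.97 to 1.13 for *Pax6* and, at its narrowest, from -0.37 to 1.31 for *Hesx1*. Among the 12 embryos, *Zmym2*-/- embryo 6 was one of the lowest 3 for all 9 genes and *Zmym2*-/- embryo 5 for 6 of them. *Zmym2*+/+ embryo 2, the littermate of *Zmym2*-/- embryo 5, was one of the lowest 3 for 7. *Zmym2*-/- embryo 1 was one of the highest 3 for 8 genes and *Zmym2*+/+ embryo 5 for 7. Without *Zmym2*-/- embryos 5 and 6, all 9 log2 fold changes were positive, from 0.15 for *Pax6* to 0.88 for *Lhx5*, and none was called.

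Within litters, the 9 genes parted into 2 sets. The 4 comparisons of littermates of unlike genotype come from the 3 shared litters, and *Zmym2*-/- embryo 4 enters 2 of them. *En1*, *Wnt1*, *Egr2*, *Sox1* and *Pax6* were lower in the *Zmym2*-/- embryo in all 4 comparisons. Over all genes, 14.2% were lower in all 4 and 13.4% were higher. *Six3*, *Hesx1*, *Lhx5* and *Pax2* were higher in the *Zmym2*-/- embryo in the 3 comparisons of litters A and B and lower in litter C.

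In litter A, *Pax6* was at 8.16 CPM in *Zmym2*-/- embryo 4, against 16.0 and 30.2 CPM in its *Zmym2*+/+ littermates 1 and 4, and *Sox1* at 5.23 CPM, against 15.7 and 16.4 CPM. In the same *Zmym2*-/- embryo *Lhx5* was at 19.0 CPM, against 7.04 and 8.32 CPM in the littermates, so *Lhx5* was higher than in the littermates where *Sox1* and *Pax6* were lower. In litter B, *Pax6* was at 1.09 CPM in *Zmym2*-/- embryo 5, against 16.4 CPM in *Zmym2*+/+ embryo 2. *Six3* was there at 10.3 CPM, against 1.40 CPM, and *Pax2* at 9.12 CPM, against 1.40 CPM. In litter C, *Zmym2*-/- embryo 6 was lower for all 9 genes, by the least for *Six3* (5.63 CPM, against 7.95 CPM in *Zmym2*+/+ embryo 3). *En1* was at 0.317 CPM there, against 13.8 CPM, and *Pax6* at 0.257 CPM, against 18.2 CPM. *Wnt1*, with 0 counts, was at least 179-fold lower than the 8.09 CPM of its littermate, a bound that covers counting error only.

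**Figure D2:**
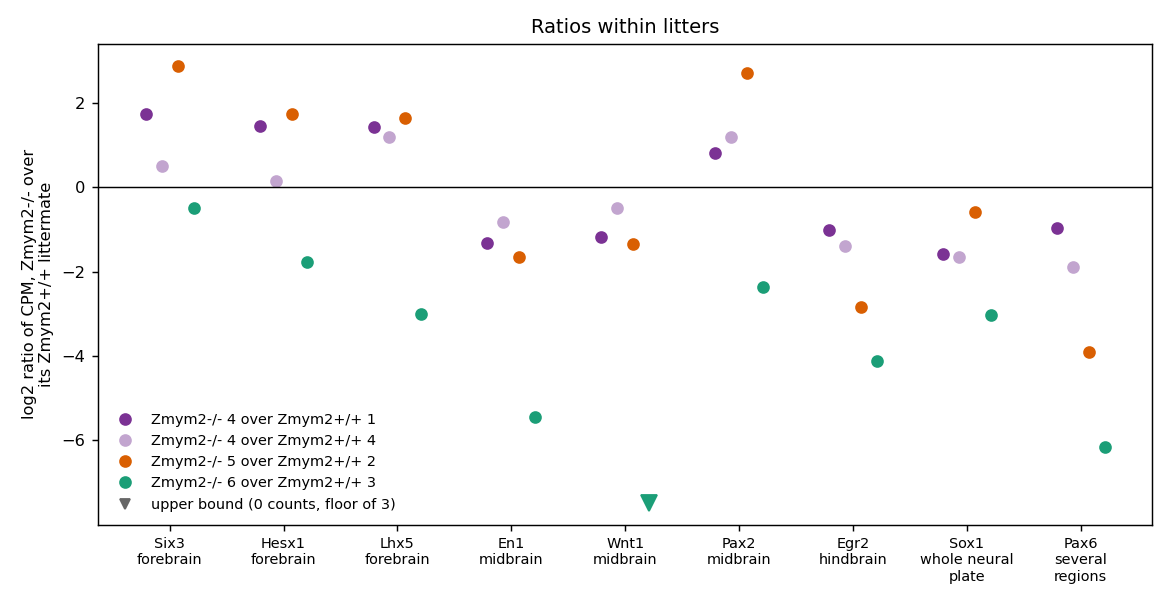
Log2 ratio of CPM in each *Zmym2*-/- embryo over its *Zmym2*+/+ littermate (vertical axis) for each gene (horizontal axis), with 1 colour per pair of embryos and a triangle for the bound on *Wnt1*. All points of *En1*, *Wnt1*, *Egr2*, *Sox1* and *Pax6* lie below 0, and for *Six3*, *Hesx1*, *Lhx5* and *Pax2* 3 of 4 lie above it.

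With litter as a block over these 7 embryos, the log2 fold changes were -3.27 for *Pax6* (SE 0.86), -2.43 for *Egr2*, -2.24 for *En1*, -2.18 for *Wnt1* and -1.73 for *Sox1*, and those of *Six3*, *Pax2*, *Lhx5* and *Hesx1* were 1.08, 0.62, 0.42 and 0.32. An unadjusted p under 0.05 was reached by 4 genes, all lower (*Egr2*, *Sox1*, *Pax6* and *En1*), where 7.31% of all genes were lower at that p. None was called by edgeR, the lowest adjusted p being 0.277, and 0.00461% of all genes were called in that fit. In 3 of the 4 comparisons a female *Zmym2*-/- embryo is set against a male *Zmym2*+/+ embryo, so sex differs as well.

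Split by sex, the differences had opposite signs for 8 of the 9 genes. Among males, all 9 log2 fold changes were positive, from 0.58 for *En1* to 1.48 for *Six3*, and 1 gene had an unadjusted p under 0.05 (*Pax6*, log2 fold change 0.89, adjusted p = 0.0796, edgeR), where 14.4% of all genes were higher at that p. Among females, 8 of 9 were negative, and the exception was *Hesx1* at 0.23. The female *Zmym2*-/- embryos are also those of the shared litters. The fit in females and the one with litter as a block thus share all their *Zmym2*-/- embryos. *Pax6* was at -3.19, *Egr2* at -2.95, *Sox1* at -2.91 and *En1* at -2.38 among females, and these 4 had an unadjusted p under 0.05, where 4.16% of all genes were lower at that p. None was called within a sex, beside 1.77% of all genes in males and 0.0698% in females, and the lowest adjusted p among females was 0.0951, for *Sox1*. *Zmym2* itself was at 54.7 to 67.1 CPM in male and 25.4 to 40.8 CPM in female *Zmym2*-/- embryos, against a mean of 71.5 CPM in male and 108 CPM in female *Zmym2*+/+ embryos, with a log2 fold change of -0.21 in males and -1.65 in females (interaction adjusted p = 0.0689, edgeR).

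The test of that difference, the sex by genotype interaction, called none of the 9 genes and 0 of 22729 genes in all with edgeR (0.0% of all genes). At an unadjusted p under 0.05 it held 4 of the 9 genes, all with a positive difference, males minus females, where 10.3% of all genes had that direction and p, and 5067 genes (22.3%) reached it in either direction. The difference of log2 fold changes, males minus females, was 4.06 for *Sox1* (SE 0.81, adjusted p = 0.0617), 4.00 for *Egr2* (0.98, adjusted p = 0.0688), 4.03 for *Pax6* (1.15, adjusted p = 0.0825) and 2.89 for *En1* (1.22, adjusted p = 0.19). It was 1.81 for *Six3*, 0.48 for *Hesx1*, 1.45 for *Lhx5*, 1.48 for *Pax2* and 2.35 for *Wnt1*. DESeq2 called 3 genes, *Sox1* (adjusted p = 9.42e-05), *Egr2* (0.00108) and *Pax6* (0.00491), beside 12.9% of all genes. edgeR called 4 of the 9 without *Zmym2*-/- embryo 4, 2 without *Zmym2*+/+ embryo 3 and 1 without *Zmym2*+/+ embryo 4. As the male *Zmym2*-/- embryos are 1 litter, a difference between litters cannot be told apart from one between sexes here.

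**Figure D3:**
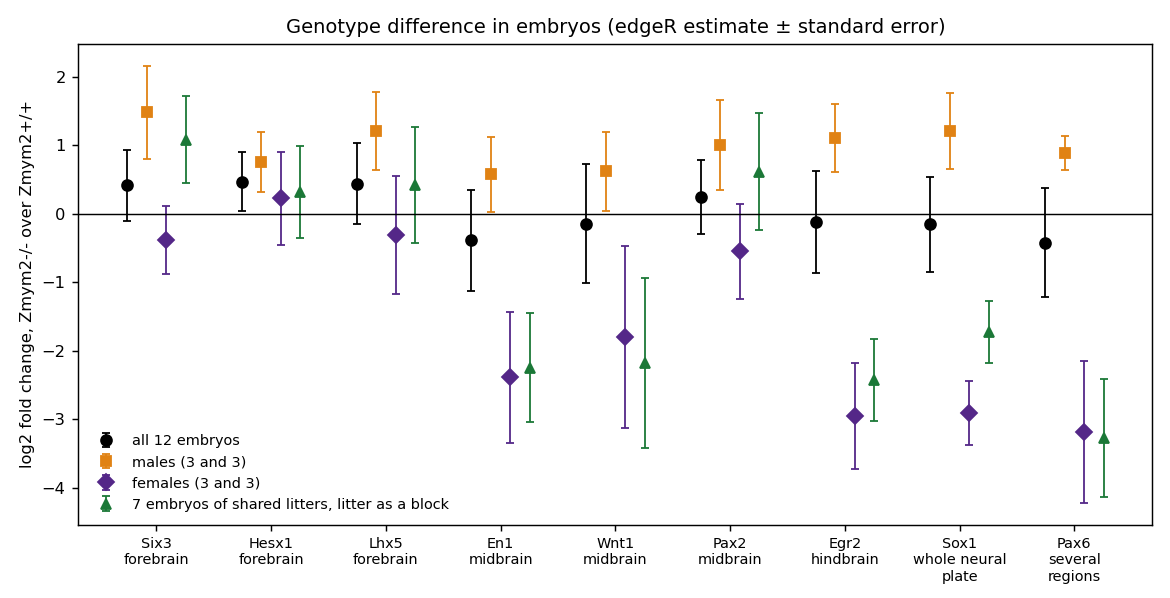
Log2 fold change of *Zmym2*-/- over *Zmym2*+/+ embryos with its SE (vertical axis) for each gene (horizontal axis), from all 12 embryos, from each sex alone and from the 7 embryos of shared litters with litter as a block. For *Egr2*, *Sox1* and *Pax6* the estimate in males lies above 0 and those in females and within litters below -1.7, while for *Hesx1* all 4 estimates lie above 0. The fits in females and within litters share all their *Zmym2*-/- embryos.

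In *Zmym2*-/- embryos 5 and 6 markers of other tissues stood apart along with the low members. The summed level of 13 listed motile cilia genes was 75.4 CPM in *Zmym2*-/- embryo 5 and 201 CPM in embryo 6. It was 21.4 to 32.9 CPM in the other 4 *Zmym2*-/- embryos, against 22 to 34.9 CPM in *Zmym2*+/+ embryos. *Dnah9* was at 0 counts in *Zmym2*+/+ embryo 1. *Spag6l* went the other way, with 0 counts in *Zmym2*-/- embryos 4 and 5 and 0.030 CPM in embryo 6. Its *Zmym2*+/+ values were at least 0.11 CPM. In *Zmym2*-/- embryo 5 *Ccdc40* (17.8 CPM) and *Tppp3* (7.66 CPM) were within the *Zmym2*+/+ range. The 10 genes of the streak and presomitic mesoderm summed to 360 and 548 CPM in *Zmym2*-/- embryos 5 and 6, against 73.6 to 310 CPM in *Zmym2*+/+ embryos. These sums were made up mostly of *T* (102 and 231 CPM) and *Cdx2* (137 and 175 CPM). *Tbx6*, *Hes7* and *Dll3* were within the *Zmym2*+/+ range in both embryos. The 8 heart genes were at 258 and 30.5 CPM in *Zmym2*-/- embryos 5 and 6, against 316 to 977 CPM in *Zmym2*+/+ embryos. *Nkx2-5* of this list went the other way in embryo 5, where its 20.3 CPM was the highest of all 12 embryos. In embryo 6 it was at 1.55 CPM, against at least 2.89 CPM in *Zmym2*+/+ embryos. *Myh7* was within the *Zmym2*+/+ range in both embryos. The 10 genes of yolk sac and gut endoderm were at 4288 and 5365 CPM in embryos 5 and 6, against 1184 to 2758 CPM in *Zmym2*+/+ embryos. *Zmym2*+/+ embryo 2, also low for most members, did not share the high cilia and streak levels: its motile cilia genes were at 23.3 CPM, and its streak and presomitic genes, at 73.6 CPM, were the lowest of all 12 embryos. Among *Zmym2*+/+ embryos it had the lowest heart (316 CPM) and neural crest (77.7 CPM) sums. Its yolk sac and gut endoderm sum (2758 CPM) was the highest among them.

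*Zmym2*-/- embryo 4 was below the *Zmym2*+/+ range for *Pax6* but within it for *Sox1* and *Egr2*. Its *Sox1* (5.23 CPM) and *Egr2* (1.37 CPM) were above those of *Zmym2*+/+ embryo 2 alone (3.74 and 1.07 CPM). Its motile cilia genes were at 21.4 CPM, its streak and presomitic genes at 89.1 CPM and its heart genes at 388 CPM, all within the range of *Zmym2*+/+ embryos or below it, and its yolk sac and gut endoderm genes at 2911 CPM, above the highest *Zmym2*+/+ embryo (2758 CPM). Its 8 somite genes, at 8.90 CPM, were the lowest of all 12 embryos, beside 17.1 CPM in its littermate *Zmym2*+/+ embryo 1. The somite genes ranged from 8.90 to 127 CPM in *Zmym2*-/- embryos and from 17.1 to 118 CPM in *Zmym2*+/+ embryos. The 8 neural crest genes were at 71.1 and 50.1 CPM in *Zmym2*-/- embryos 5 and 6, and at 212 and 135 CPM in *Zmym2*-/- embryos 1 and 3, against 77.7 to 130 CPM in *Zmym2*+/+ embryos. The heart genes too were above the *Zmym2*+/+ range in *Zmym2*-/- embryos 1 and 3, at 1128 and 1072 CPM. The ranges of the sums overlapped between genotypes in every marker list, those above included. The 8 surface ectoderm genes summed to 698 to 1615 CPM in *Zmym2*-/- embryos, against 772 to 2054 CPM in *Zmym2*+/+ embryos, a sum made up mostly of the keratins *Krt8* and *Krt18*, and the 8 primitive blood genes to 97.0 to 3511 CPM, against 34.5 to 7705 CPM. The 7 endothelial genes summed to 78.1 to 330 CPM, against 158 to 322 CPM, and the 10 of trophoblast and decidua to 136 to 1181 CPM, against 90.0 to 1659 CPM. Within the surface ectoderm list, the epidermal factor *Trp63* was at 0.074 and 0.030 CPM in *Zmym2*-/- embryos 5 and 6, against at least 0.66 CPM in *Zmym2*+/+ embryos. The ligand *Wnt6* was at 19.9 and 8.45 CPM in the same 2 embryos, against at least 27.6 CPM, and the factor *Grhl3* at 2.43 and 3.67 CPM, against at least 4.37 CPM. *Epcam* of this list went the other way, at 161 and 244 CPM in these 2 embryos, against at most 110 CPM in *Zmym2*+/+ embryos. *Esrp1* was at 38.9 and 54.5 CPM, against at most 42.9 CPM, and *Krt8*, *Krt18* and *Grhl2* were within the *Zmym2*+/+ range. In these lists *Tfap2b* of neural crest and *Tpbpa* of trophoblast were the other genes at 0 counts in some embryo. The part of tissue composition or stage in the members' levels was not tested.

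**Figure D4:**
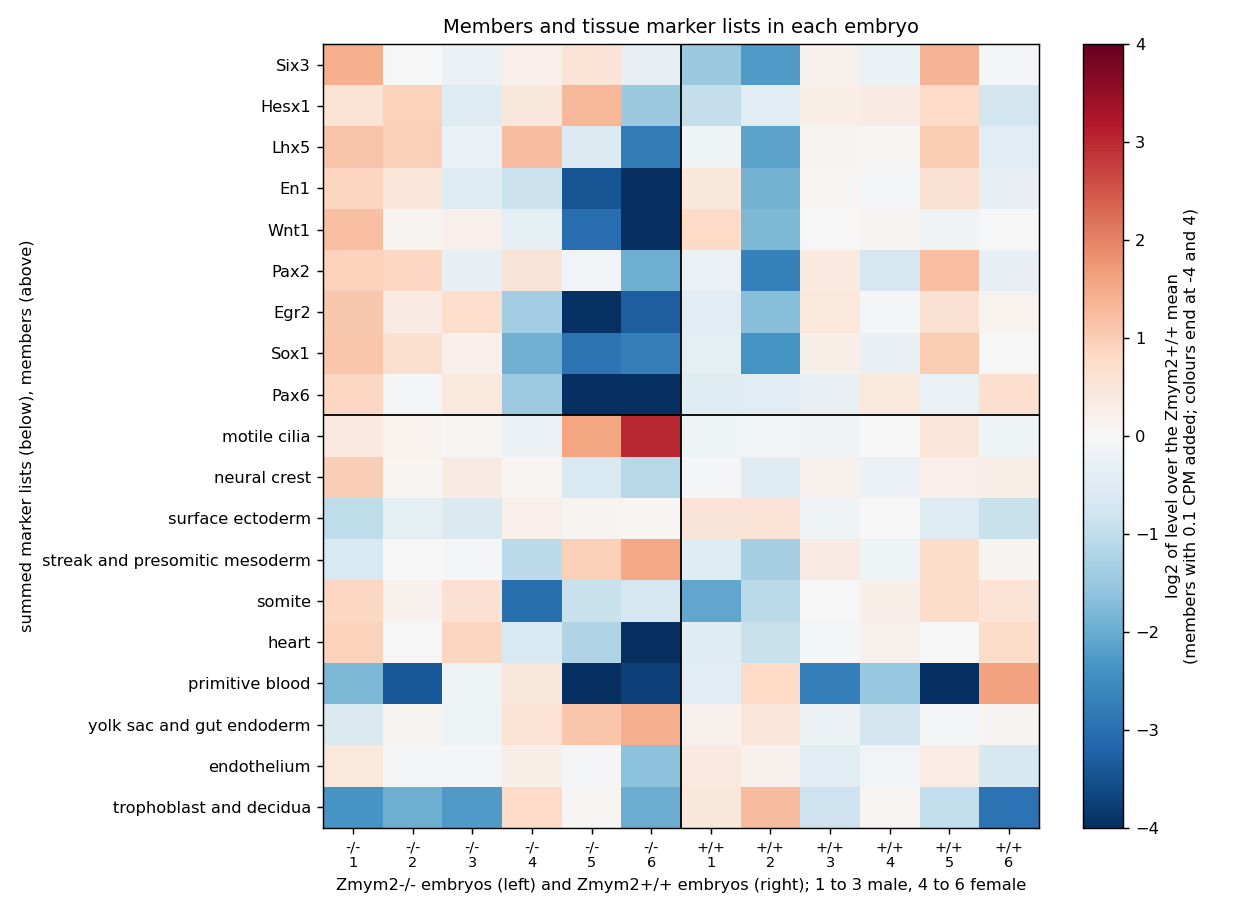
Colours give the log2 of each embryo's level over the mean of the *Zmym2*+/+ embryos, for the 9 genes (upper rows, 0.1 CPM added) and for the summed CPM of 10 tissue marker lists (lower rows), with the 6 *Zmym2*-/- embryos at the left. *Zmym2*-/- embryos 5 and 6 are blue for *En1*, *Wnt1*, *Egr2*, *Sox1* and *Pax6* and red for motile cilia and for streak and presomitic mesoderm.

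Other genes of neural patterning were not called by genotype either. Of 99 measured genes in 6 lists, none was called between genotypes by edgeR, 8 had an unadjusted p under 0.05 (3 higher, 5 lower; 12% of all genes reach it), and the median log2 fold change was 0.11. Those with the smallest p in their lists included *Cer1*, an antagonist of Nodal, BMP and Wnt signals (log2 ratio 2.32, SE 0.89, adjusted p = 0.37), *Chrd*, an antagonist of BMPs (1.57, adjusted p = 0.382), *Fst*, an antagonist of activin (-1.0, adjusted p = 0.378), the boundary signal *Fgf17* (-0.76, adjusted p = 0.389) and the neural plate factor *Zic5* (0.55, adjusted p = 0.389). Among the embryos low for most members, *Zmym2*+/+ embryo 2 had the lowest sum of all 12 embryos in each of the 6 lists. Its sums ran from 0.31 (general neural) to 0.65 (forebrain) times the *Zmym2*+/+ mean. *Zmym2*-/- embryos 5 and 6 were not low in every list. In *Zmym2*-/- embryo 6 the summed level of the hindbrain list, 388 CPM, was the highest of all 12 embryos and 1.61 times the *Zmym2*+/+ mean, and the midbrain (1.32 times), general neural (1.23 times) and forebrain (1.05 times) lists were also above that mean. In *Zmym2*-/- embryo 5 the midbrain and hindbrain lists were at 1.15 and 1.13 times the *Zmym2*+/+ mean. Its forebrain and general neural lists were below that mean, at 0.82 and 0.74 times. In the comparisons of littermates 19 of the 99 were lower in the *Zmym2*-/- embryo all 4 times and 6 were higher, beside 14.2% and 13.4% of all genes. Of the 20 listed forebrain genes 7 were lower all 4 times, among them *Otx1*, *Emx1*, *Six6*, *Barhl2* and *Foxd1*, and none was higher all 4 times (*Six6* and *Barhl2* were at 0 counts in some embryo). Of 14 midbrain genes 3 were lower all 4 times (*En2*, *Pax5* and *Pax8*) and 2 were higher (*Lmx1b* and *Cnpy1*), and of 16 hindbrain genes 3 were lower, among them *Hoxa2* and *Cyp26c1*, and 1 was higher.

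The sex by genotype interaction had a positive sign for 85 of the 99 (47.3% of all genes), with an unadjusted p under 0.05 for 42 in that direction and 2 in the other, where 10.3% and 12% of all genes have these directions at that p. Its median was 1.51 over the 99 and -0.07 over all genes on the log2 scale. Among the smallest p values were those of *Nkx2-9* of the ventral neural tube (5.32), the hindbrain gene *Cyp26c1*, which breaks down retinoic acid (4.11), the forebrain factor *Foxd1* (5.33), and *Hoxa2* (2.61), each with an adjusted p of 0.0617 in edgeR.

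The members fell into loose groups across embryos. After subtracting each genotype's mean of log2 CPM, *En1* and *Wnt1* correlated at 0.96 over the 12 embryos, *Egr2* and *Sox1* at 0.95, *Lhx5* and *Pax2* at 0.93 and *Wnt1* and *Pax6* at 0.93. *Six3* and *Pax6* correlated at 0.22 and *Hesx1* and *Egr2* at 0.17. The genes most like each member among 13828 with a mean of at least 1 CPM were the neural tube factor *Pax3* (0.97) for *Wnt1*, after *Plk2* (0.97) and *Mab21l2* (0.97), and *Wnt1*, the neural crest factor *Foxd3* (0.96) and *Pax3* (0.95) for *En1*. For *Sox1* they were the neural factor *Sox21* (0.97), *Ajap1* (0.97) and *Rfx4* (0.97), for *Lhx5* they were *Lrrc8c* (0.95), *Pax2* and *Pax7* (0.93), and for *Pax2* they were *Hoxd13* (0.96), *Grk5* (0.95) and *Lhx5*. *Hesx1* was closest to the Wnt antagonist *Sfrp5* (0.92), *Oit3* (0.89) and *Spsb1* (0.86), and *Six3* to *Nacc2* (0.94), *Etnk1* (0.93) and *Sobp* (0.92). *Egr2* was closest to *Col4a5* (0.96), *Npnt* (0.96) and *Itga9* (0.95), and *Pax6* to *Pdzph1* (0.98) and the cardiac muscle genes *Hrc* (0.98) and *Lrrc10* (0.98). All these points share litters and embryos of unlike composition.

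Per length, in the authors' RPKM, *Hesx1* had the highest level of the 9 in both genotypes (7.72 ± 4.26 RPKM in *Zmym2*-/- embryos, against 5.29 ± 2.64 RPKM in *Zmym2*+/+ embryos, SD, n = 6 each) and *Egr2* the lowest (1.07 ± 1.04 RPKM, against 1.08 ± 0.523 RPKM). In between came *Lhx5*, *En1*, *Sox1*, *Wnt1*, *Pax2*, *Six3* and *Pax6* in *Zmym2*-/- embryos and *En1*, *Sox1*, *Wnt1*, *Lhx5*, *Pax6*, *Pax2* and *Six3* in *Zmym2*+/+ embryos. Every gene's range over embryos overlapped that of its neighbour in this order, and neighbours were not tested.

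In mESCs, *En1* and *Pax6* rose in *Zmym2*-/- lines. *En1* was at 6.26 and 8.19 CPM in *Zmym2*-/- mESCs, against 1.07 and 0.247 CPM in control mESCs (edgeR log2 ratio 3.38, SE 0.41, adjusted p = 9.68e-05). *Pax6* was at 28.4 and 18.4 CPM in *Zmym2*-/- mESCs, against 5.56 and 2.91 CPM in control mESCs (edgeR log2 ratio 2.45, SE 0.26, adjusted p = 3.57e-05). For both genes each *Zmym2*-/- library lay above each control library. Of the 9 genes, 7 were measured and 2 called, beside 19.2% of all genes called in either direction and 10.3% called higher. The size for *En1* depends on the control libraries, which had 51 and 9 counts: its log2 fold change was 4.85 without control mESC 1 and 2.75 without control mESC 2, and that of *Pax6* was 3.00 and 2.07.

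The other 5 measured genes were not called in mESCs. *Sox1* was at 8.82 and 12.2 CPM in *Zmym2*-/- mESCs, against 14.3 and 12.5 CPM in control mESCs (edgeR log2 ratio -0.35, SE 0.17, adjusted p = 0.191), and was called without *Zmym2*-/- mESC 2 (-0.60, adjusted p = 0.0203). *Hesx1*, which is expressed in pluripotent cells as well as in forebrain, was at 2.07 and 1.73 CPM in *Zmym2*-/- mESCs, against 1.47 and 1.32 CPM in control mESCs (log2 fold change 0.44, adjusted p = 0.352, edgeR). *Egr2*, *Pax2* and *Lhx5* were below 0.8 CPM in every mESC library. *Six3* and *Wnt1* are not among the 20159 genes of the mESC count table, and their RPKM were at most 0.012.

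As *En1* and *Pax6* moved together in mESCs, their promoters are shown, from the RefSeq promoter table on GRCm38.p6. Capitals mark matches, on either strand, to the E-box CACGTG and to the E2F motif GGCGGGA, the kinds of motif read by PRC1.6, a repressive complex that the study relates to ZMYM2. The *En1* stretch lies at chr1:120602237-120602417, ends where the GENCODE gene begins and holds 2 E-boxes. The *Pax6* stretch at chr2:105668646-105668895 holds 1 E2F motif, read on the other strand. Both are on the + strand and read 5′ to 3′.
En1: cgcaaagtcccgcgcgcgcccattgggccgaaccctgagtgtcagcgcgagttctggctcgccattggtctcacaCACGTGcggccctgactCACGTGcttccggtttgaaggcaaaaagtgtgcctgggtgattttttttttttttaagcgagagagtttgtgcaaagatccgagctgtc
Pax6: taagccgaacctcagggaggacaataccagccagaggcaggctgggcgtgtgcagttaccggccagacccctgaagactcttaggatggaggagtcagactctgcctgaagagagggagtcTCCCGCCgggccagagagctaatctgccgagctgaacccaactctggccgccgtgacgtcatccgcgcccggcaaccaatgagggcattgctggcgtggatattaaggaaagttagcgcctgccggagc
Among 32851 RefSeq promoters, an E-box is found in 3.72% of stretches of 181 bases placed like that of *En1*, while the 250 bases before the start hold an E-box in 6.02% and the E2F motif in 9.75%. Of the 9 genes, 8 matched the table, with 15 promoters in all. Of these genes, 2 (*En1* and *Egr2*) had an E-box and 2 (*Pax6* and *Egr2*) an E2F motif within the 250 bases of any of their promoters. The percentages above count single promoters, and a gene with several promoters has more chances of a match. A match describes the letters only.

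*En1* (chromosome 1, 120602418 to 120607992) and *Pax6* (chromosome 2, 105668900 to 105697364) are annotated on the + strand of GRCm38 in GENCODE. *Six3* lies on chromosome 17 (85613608 to 85629302), *Lhx5* on chromosome 5 (120431699 to 120441223), *Pax2* on chromosome 19 (44756045 to 44837871) and *Sox1* on chromosome 8 (12395295 to 12400126), all on the + strand too. No other gene overlaps *En1*, *Wnt1* (chromosome 15, 98789857 to 98793837), *Hesx1* (chromosome 14, 26994416 to 27002329) or *Egr2* (chromosome 10, 67535475 to 67542188). *Six3*, *Lhx5*, *Pax2* and *Pax6* have antisense neighbours and *Sox1* a transcript on its own strand (*Sox1ot*), and the strand setting of the counting is not given, so part of their counts could belong to these. Among such neighbours of the count table, *Six3os1* averaged 2.71 CPM in *Zmym2*-/- embryos, against 2.43 CPM in *Zmym2*+/+ embryos, and *Sox1ot* 1.13 CPM, against 1.53 CPM, and the others less than 0.1 CPM.

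In EBs after 3 days, none of the 8 measured genes was called between genotypes by edgeR, beside 7.39% of all genes. *En1* was at 1.57 and 1.93 CPM in *Zmym2*-/- EBs, against 1.73 and 1.5 CPM in control EBs (edgeR log2 ratio 0.11, SE 0.27, adjusted p = 0.871), and *Pax6* at 7.88 and 7.15 CPM, against 8.22 and 6.59 CPM (0.03, SE 0.15, adjusted p = 0.951, edgeR). These ranges overlap, unlike those in mESCs. *Sox1* was at 2.10 and 2.13 CPM in *Zmym2*-/- EBs, against 6.28 and 2.72 CPM in control EBs (edgeR log2 ratio -1.08, SE 0.32, adjusted p = 0.0653). It was the 1 of the 8 with an unadjusted p under 0.05 (20.6% of all genes), and it was called by DESeq2 (adjusted p = 0.047). Its size depends on the control libraries: the log2 fold change in edgeR was -1.57 without control EB 2 and -0.37 without control EB 1. Without *Zmym2*-/- EB 2 it was -1.09. *Six3*, *Lhx5*, *Pax2*, *Egr2* and *Hesx1* were below 1.6 CPM in every EB library, and *Wnt1* is not among the 20142 genes of the EB count table (at most 0.034 RPKM).

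*En1* and *Pax6* moved in opposite directions between stages in the 2 genotypes. CPM were scaled within the table of each stage, and the stage tests used the counts of both stages in 1 fit. EBs of *Zmym2*-/- lines had less *En1* than their mESCs (log2 fold change -2.10, adjusted p = 0.000529, edgeR) and less *Pax6* (-1.68, adjusted p = 0.000142), while EBs of control lines had more *En1* (1.17, adjusted p = 0.0455) and more *Pax6* (0.73, adjusted p = 0.0406). The difference of these stage effects, *Zmym2*-/- minus control, was -3.27 for *En1* (SE 0.58, adjusted p = 0.00692, edgeR) and -2.42 for *Pax6* (0.37, adjusted p = 0.00301). These 2 of 7 measured genes were called, both negative, beside 5.25% of all genes (3.07% positive and 2.18% negative). The *En1* difference was -4.74 without control mESC 1 and -2.63 without control mESC 2, and remained called each time a library was left out. The rises in control lines lost their calls without control mESC 2 (*En1* 0.53, adjusted p = 0.235, and *Pax6* 0.36, adjusted p = 0.303) and without any 1 of the 4 EB libraries (adjusted p from 0.0512 to 0.229).

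Other members had the same direction in both genotypes. *Hesx1* was lower in EBs, with 3 to 6 counts in *Zmym2*-/- EBs against 56 to 71 counts in *Zmym2*-/- mESCs, and 2 to 3 counts in control EBs against 48 to 70 counts in control mESCs (log2 fold change -4.19 in *Zmym2*-/- and -4.27 in control lines, adjusted p = 4.77e-06 and 9.4e-06, edgeR). *Sox1* fell in EBs by 2.36 on the log2 scale in *Zmym2*-/- and by 1.63 in control lines (adjusted p = 4.43e-05 and 0.000432, edgeR). *Egr2* rose by 1.01 in *Zmym2*-/- and by 1.09 in control lines (adjusted p = 0.0405 and 0.0259), calls that DESeq2 did not make (0.101 and 0.0644). *Pax2* had log2 fold changes of 1.47 in *Zmym2*-/- (adjusted p = 0.0656) and 2.09 in control lines (adjusted p = 0.0282, edgeR; 0.0575 in DESeq2), from 3 to 42 counts. For these 4 genes no difference between the stage effects of the genotypes was called (adjusted p from 0.372 to 0.965, edgeR). In all, 1 of 7 measured genes was called higher and 4 lower in EBs of *Zmym2*-/- lines, beside 23.1% and 22.1% of all genes (45.2% together), and 4 higher and 2 lower in EBs of control lines, beside 23.0% and 23.6% (46.6% together).

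**Figure D5:**
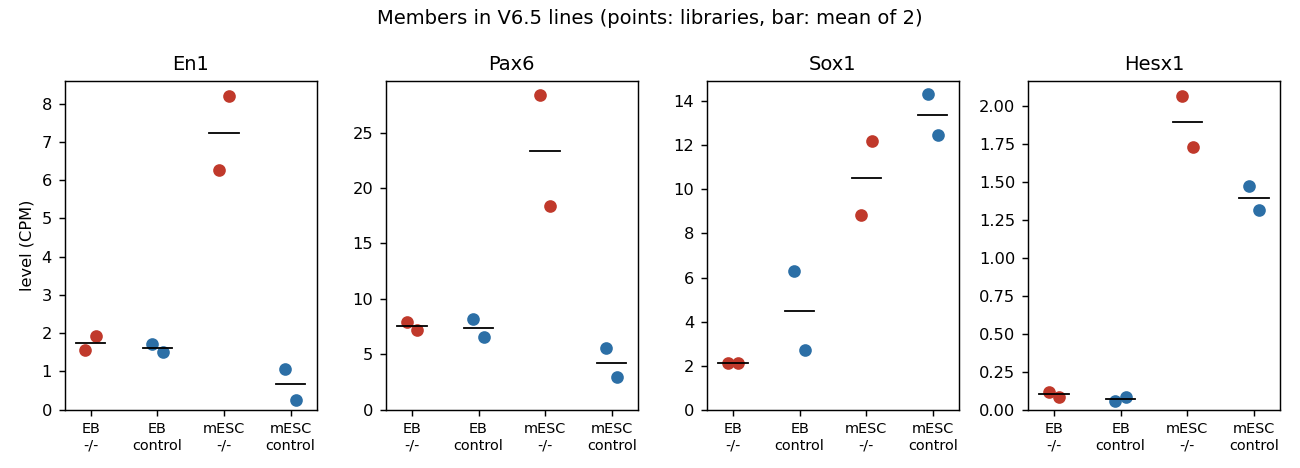
Level in CPM of *En1*, *Pax6*, *Sox1* and *Hesx1* in each library of the V6.5 lines, EBs left of mESCs and *Zmym2*-/- (red) left of control (blue), with the mean of 2 libraries as a bar. *En1* and *Pax6* are high in *Zmym2*-/- mESCs alone among these groups, at 6.26 and 8.19 CPM and at 28.4 and 18.4 CPM.

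Of the other patterning genes, 89 were measured in mESCs, where 21 were called higher and 10 lower in *Zmym2*-/- lines (10.3% and 8.94% of all genes), with a median log2 fold change of 0.52, against 0.01 over all genes. Of 15 hindbrain genes, 4 rose, the hindbrain Hox genes *Hoxb1* (log2 fold change 5.13), *Hoxb4* (4.39) and *Hoxb2* (3.76) and the Eph receptor *Epha4* (2.10), and 1 fell. Of 15 general neural genes, 5 rose, among them *Neurog1* (2.54) and *Zic2* (2.22), and *Msi1* fell (-0.53). Of 14 forebrain genes 2 rose, among them *Otx2* (2.42), a homeobox factor of forebrain and midbrain, and of 14 midbrain genes *Lmx1a* (2.13), *Pax8* (1.65) and *Fgf15* (1.32) rose, while *Gbx2* (-0.60) and *Spry1* (-0.43) fell. In the neural tube list 3 rose, such as *Msx1* (2.18), and 3 fell, such as *Olig2* (-2.36). Of 17 genes for signals 4 rose, such as the Wnt effector *Lef1* (0.70), and 3 fell, such as *Bmp7* (-2.06).

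In EBs 93 were measured, and 11 were called higher and 7 lower (4.62% and 2.77% of all genes). The rises included *Foxd1* (2.16), *Lmx1a* (2.58) and the Wnt target *Axin2* (0.91), and the falls *Hoxb3* (-1.47) and *Epha4* (-0.67). The stage effect differed between genotypes for 19 of 86 genes, beside 5.25% of all genes. For 12 the difference was negative (2.18% of all genes), such as *Hoxb1* (-4.32), *Otx2* (-2.71) and *Zic2* (-2.20), and for 7 positive (3.07%), such as *Bmp7* (2.17) and *Olig2* (1.93).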

How the data were processed

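RNA was measured in 20 libraries. The authors used Trimmomatic (0.34) on the reads, STAR (2.7.8a) for alignment to mm10, Picard (2.9.0) for duplicates and HTSeq-count for counts per gene, whose version, annotation and strand setting are not given in the sources used here. Libraries were stranded. The raw counts deposited by the authors were used for all tests. The score deposited beside each count is the count over 1 factor per library, rounded, and was used only as a check. RPKM were made by the authors with StringTie (1.3.5) and served to compare levels between genes and in an alternative test.

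Genes with at least 10 counts over the libraries of a fit were tested in R (4.3.3) with edgeR (4.0.16): TMM scaling, the two-sided quasi-likelihood test, and Benjamini-Hochberg adjustment over all genes tested, with calls at 0.05. The tables hold no gene under this minimum. The SE was taken from F (its square root divides the absolute log2 fold change). The 95% intervals are the estimate ± 1.96 SE, an approximation that is somewhat narrow with this few embryos. DESeq2 (1.42.0), limma (3.58.1) on log2(RPKM + 0.1) and log2(RPKM + 1), RLE scaling, other filters, sex, series and litter terms, and fits without single libraries were alternatives. Fits without whole litters were added after the data were seen. A count of 0 allows up to 3 counts. Floors cover counting error only. The labels do not say whether the 2 libraries of a line group are separate cultures, so their p-values measure the spread between these libraries.

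The members and lists were chosen with earlier results of these data known. The text names all 9 members, *Zmym2*, genes of the lists that were called or had the smallest p, and the 3 genes most like each member. List genes lower or higher in all 4 littermate comparisons were named after their values were seen. The fit was tested on simulated data. Some genes of the lists enter the counts but are not reported here by name.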

Additional observations from a re-analysis of the deposited data

Results flagged for a closer look

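The *Six3* level of 19.7 CPM in *Zmym2*-/- embryo 1 stood apart from the other 5 *Zmym2*-/- embryos, the next being 10.3 CPM, by Dixon's gap test, which marks about 1 in 20 groups by chance. It was the 1 such value among 20 groups of 6 embryos tested.

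The stage effect, EB minus mESC, differed between *Zmym2*-/- and control lines for *En1* (difference of log2 fold changes -3.27, adjusted p = 0.00692, edgeR) and for *Pax6* (-2.42, adjusted p = 0.00301), as *En1* and *Pax6* were higher in both *Zmym2*-/- than in both control mESC libraries and overlapped between genotypes in EBs.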

How the results depend on the processing

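None of the 9 genes was called between embryo genotypes under any of 33 alternatives, but directions depended on which embryos were used. Among males alone, *Pax6* (0.89), *Sox1* (1.21), *Egr2* (1.11), *En1* (0.58) and *Wnt1* (0.62) turned positive, and without *Zmym2*-/- embryos 5 and 6 they were 0.15, 0.36, 0.43, 0.16 and 0.41. The H and J series go by the letter that opens an embryo's name, with 4 *Zmym2*-/- and 2 *Zmym2*+/+ embryos in J and 2 *Zmym2*-/- and 4 *Zmym2*+/+ embryos in H. Within the J series *Sox1* (0.19), *Egr2* (0.063), *En1* (0.10) and *Wnt1* (0.19) turned positive. Among females alone, *Six3* (-0.38), *Lhx5* (-0.30) and *Pax2* (-0.55) turned negative. With 1 embryo or litter left out, the log2 fold change ran from -2.66 to 0.22 for *Egr2*, from -2.53 to 0.18 for *Sox1*, from -1.80 to 0.22 for *Wnt1* and from -0.22 to 0.68 for *Pax2*. Of the members, 3 were called for the sex by genotype interaction in DESeq2, and 0 to 4 with 1 embryo left out.

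In EBs the count of members called was 1 in DESeq2, 1 with a replicate block and 0 to 1 with 1 library left out, and in control lines between stages 2 to 7 with 1 library left out. *Egr2* in EBs, near 0 throughout, was positive with RLE (0.00016), with at least 1 CPM (0.0066) and in DESeq2 (0.0080). With 1 library left out, EB genotype differences ran from -0.24 to 0.23 for *Egr2*, -0.035 to 0.26 for *En1*, -1.03 to 0.065 for *Lhx5*, -0.13 to 0.19 for *Pax6* and -0.84 to 0.20 for *Six3*. In mESCs they ran from -0.21 to 0.47 for *Egr2* and -2.89 to 0.23 for *Lhx5*, and for stage by genotype from -0.47 to 0.22 for *Egr2*, -0.19 to 0.31 for *Hesx1*, -0.80 to 2.33 for *Lhx5*, -1.20 to 0.22 for *Pax2* and -1.22 to 0.0037 for *Sox1*. The cause was not tested.

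Replicate numbers are shared by the groups but mark no stated pairing: deviations of same-numbered embryos correlated at -0.47 to 0.39, and no embryo correlated best with its own number. Same-numbered mESC and EB libraries correlated at 0.45 in *Zmym2*-/- and 0.18 in control lines (2 pairs each), and the labels do not say that they are the same line. With the number as a block, *Sox1* was called in EBs (-1.02, adjusted p = 0.00189, edgeR) and *Lhx5* between stages in control lines (1.45, adjusted p = 0.0448), no other member's call changed, and 49 genes, against 119 without the block, were called between embryo genotypes and 2325, against 993, for stage by genotype.

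Over all genes, the 119 calls between embryo genotypes became 356 in DESeq2, 69 with at least 1 CPM, 384 among males, 15 among females, 47 within the J series, 1 within the H series, 77 without *Zmym2*-/- embryos 5 and 6 and 1 with litter as a block. The 0 calls of the sex by genotype interaction became 2539 in DESeq2 and up to 1653 with 1 embryo left out. Low counts limit *Wnt1* and *Egr2* in *Zmym2*-/- embryos 5 and 6, *En1* and *Pax6* in embryo 6, and *Hesx1*, *Pax2* and *Lhx5* in the lines.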
